A study of Homo sapiens with 6 samples.

Results

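The ETS transcription factors PU.1 (SPI1), Spi-B (SPIB), Spi-C (SPIC), ELF1, ELF2, ELF4 and ETV6 were followed in MOLM-13 cells treated with DB2115. The 7 genes were chosen by name from the SPI, ELF and ETV6 branches of the family, and all were found among the 58381 Ensembl gene identifiers of the count table. Of these, 6 genes, all but SPIC, had at least 1 count, and the same 6 genes passed the filter on low counts that left 17219 genes for testing. MOLM-13 is an established human acute myeloid leukaemia line that carries an MLL-AF9 fusion and a FLT3 internal tandem duplication. Cells were grown in RPMI medium with 10% FBS and received either 5 µM DB2115 or vehicle, 0.001% DMSO, for 20 h before total RNA was sequenced. DB2115 is named in the labels only by this code, and the series title concerns drug-induced relocation of PU.1, so the comparison shows what the treatment did to transcripts of PU.1 and of its closest DNA-binding relatives. The labels list 3 samples per group, but the third column of each group equals the sum of the other 2 within 1% in 98.5% of genes with at least 200 counts. Columns A and B were therefore used, n = 2 libraries per group, and nothing in the labels says that they came from separate cultures, so each p-value reflects the variation from library to library alone, and that variation may be technical.

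ETS factors share a winged helix-turn-helix domain that contacts a GGAA core, and flanking bases separate the subfamilies. PU.1, Spi-B and Spi-C form the SPI subfamily, whose sites usually carry an A-rich stretch before the core. PU.1 is required for the myeloid and B lineages and activates receptor, adhesion and phagocyte genes, Spi-B acts in B cells and plasmacytoid dendritic cells, and Spi-C in splenic red pulp macrophages. ELF1, ELF2 and ELF4 belong to the ELF subfamily and act in blood and endothelial cells. ETV6 is a repressor with an oligomerising pointed domain and a frequent partner in leukaemia fusions.

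Total counts lay between 36547900 and 42446253 per library. Myeloid identity was checked with 8 fixed markers. The mean of CD33 was 35.5 CPM (counts scaled for library size, as explained with the results) in vehicle and 55.4 CPM with DB2115. FLT3 stood at 431 and 139 CPM, and the stem cell marker CD34 was near 0 at 0.0285 and 0.0122 CPM. PTPRC went from 204 to 33.8 CPM and LYZ from 210 to 88.2 CPM. MPO went from 52.6 to 290 CPM, CSF3R from 50.2 to 111 CPM and KIT from 0.0690 to 1.39 CPM. The 8 markers summed to 973 to 995 CPM in vehicle and to 711 to 728 CPM with DB2115. T cell markers summed to at most 1.37 CPM and erythroid markers to at most 0.415 CPM in any library. Plasmacytoid dendritic cell markers summed to 68.1 to 71.9 CPM in vehicle and to about 112 CPM with DB2115. Epithelial markers summed to 2.45 to 3.73 CPM in vehicle and 64.6 to 66.9 CPM with DB2115. KRT8 made up nearly all of the sum with DB2115 and 2.85 and 1.65 CPM of it in vehicle libraries A and B. The defining markers EPCAM and CDH1 were near 0. The part of these markers in the results was not tested.

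The start regions of the ELF genes are shown first, since ELF1, ELF4 and ELF2 are relatives with different responses below. RefSeq start windows of GRCh38.p14, 250 bases before to 50 bases after a start, were found for the 6 genes other than SPI1, 11 windows in all. Sequences run 5′ to 3′ on the gene's strand, end upstream of the start, leave out bases annotated as untranslated except in the second, which GENCODE places in the first exons of both ELF1 and the divergent gene WBP4, as untranslated sequence, and carry each GGAA or its complement TTCC in capitals. The first is an inner ELF1 start (chr13:40982900-40983149, minus strand), the second is a stretch of 30 bases before the outer ELF1 start (chr13:41061387-41061416, minus strand), the third an ELF4 start (chrX:130110498-130110619, minus strand), the fourth the outer ELF2 start (chr4:139177219-139177468, minus strand).
ELF1 inner start: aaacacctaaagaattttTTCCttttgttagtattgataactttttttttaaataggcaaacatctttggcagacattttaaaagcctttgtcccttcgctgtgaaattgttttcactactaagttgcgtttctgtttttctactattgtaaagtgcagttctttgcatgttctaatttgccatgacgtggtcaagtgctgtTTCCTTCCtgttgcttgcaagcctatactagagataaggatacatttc
ELF1 outer start: gtataaaggggttgaggtcaccgGGAAggg
ELF4 start: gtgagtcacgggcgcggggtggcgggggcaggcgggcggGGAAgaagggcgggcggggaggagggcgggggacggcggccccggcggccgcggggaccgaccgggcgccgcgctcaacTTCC
ELF2 outer start: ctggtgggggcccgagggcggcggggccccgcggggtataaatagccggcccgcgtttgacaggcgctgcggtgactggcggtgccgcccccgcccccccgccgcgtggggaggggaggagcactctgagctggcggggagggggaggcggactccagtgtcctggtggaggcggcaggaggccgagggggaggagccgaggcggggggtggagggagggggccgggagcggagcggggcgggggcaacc

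GGAA was searched on both strands in the whole 300-base windows. The 3 ELF1 windows held 5 (outer), 3 (the inner window shown) and 0 matches, and the 2 ELF2 windows 0 (outer) and 2. Each of the 3 ELF4 windows held 3, the ETV6 window 4, the SPIC window 1 and the SPIB window 0. Windows without a match thus belonged to ELF1, called changed below, and to ELF2 and SPIB, which were not called. Whether these matches bear on the responses was not tested. The median over all 35116 RefSeq windows was 3, and 95.5% of them held at least 1, against 8 of the 11 windows here. The longer words GAGGAA and CGGAAG, which contain the core, were in 2 and 0 of the 11 windows and in 27.9% and 19.5% of all windows. No window of these genes held GAGGAAGT, CCGGAAGT or AAAGNGGAA, which were in 2.59%, 4.14% and 2.73% of all windows. A run of at least 8 A or T bases lay in 6 of the 11 windows against 36.9% of all windows, with the longest, 21 bases, in the SPIC window. These are matches of letters in short windows, and which start the cells used is not shown by gene counts.

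Of the 7 genes, ELF1 fell strongly, ELF4 rose moderately, SPI1, SPIB, ELF2 and ETV6 were not called changed, and SPIC was not detected. Thus 1 of the 6 tested genes rose and 1 fell, where 64.1% of all tested genes were called, 32.7% higher and 31.3% lower with DB2115. The median log2 fold change was -0.04 over the 6 genes and 0.03 over all genes tested. A gene was called where the Benjamini-Hochberg adjusted p of the quasi-likelihood test in edgeR, over all 17219 genes, was under 0.05. Levels are CPM, each library's counts scaled to a common total after TMM, so they are relative to the RNA sequenced.

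**Figure D1:**
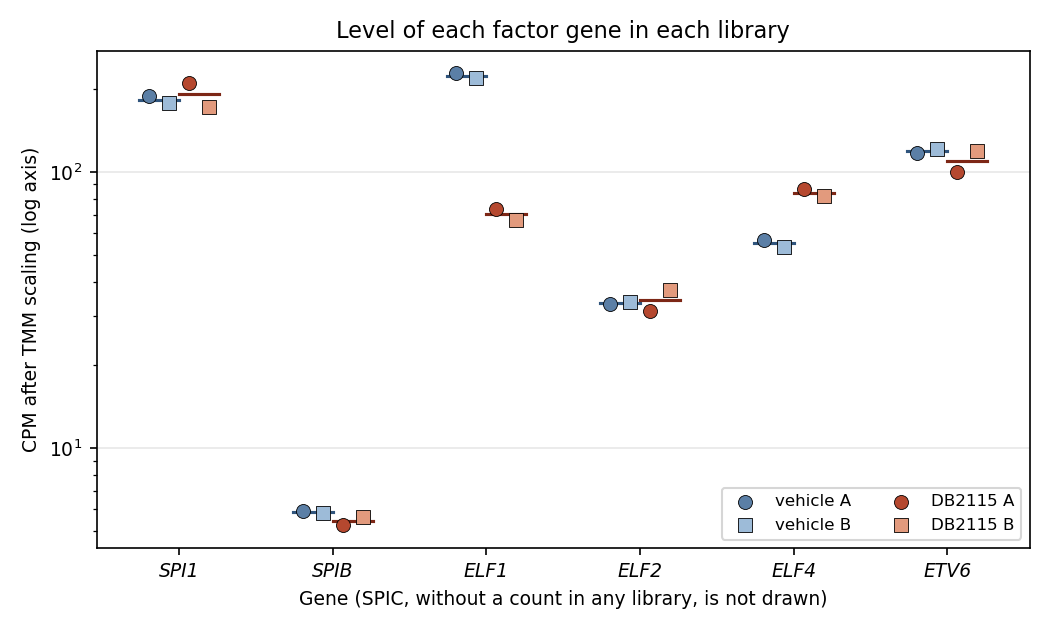
Level of each gene in CPM after TMM scaling on a log axis, in each of the 4 libraries (points) with group means (lines). ELF1 drops from 219 and 227 CPM to 67.0 and 73.5 CPM, ELF4 rises above both vehicle libraries, and the DB2115 libraries of SPI1, ELF2 and ETV6 lie on both sides of, or reach, the vehicle values.

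SPI1 encodes PU.1, the factor that the series title names. Its transcript stood at 187 and 177 CPM in vehicle libraries A and B and at 210 and 171 CPM in DB2115 libraries A and B. The DB2115 libraries bracketed both vehicle libraries, so the groups overlapped. The log2 fold change was 0.06 with a 95% interval from -0.12 to 0.24 (edgeR adjusted p = 0.526). A fall below 0.922-fold or a rise above 1.18-fold lies outside this interval. The interval covers only variation between these libraries under TMM scaling. SPI1 lies on chromosome 11, 47354860 to 47378576, minus strand.

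The DB2115 libraries of SPI1 lay far apart. Library A was 1.22 times library B, a larger gap than in 98.3% of the 1953 tested genes of similar level (a mean within 2-fold). In vehicle the ratio was 1.06, larger than in 69.4% of them. ETV6 and ELF2 had wide gaps in the same libraries but in the opposite direction, with B 1.19 times A in both, larger than in 96.2% and 92.4% of genes of their level. For ELF1 the ratio A over B was 1.10 and for ELF4 1.06, gaps larger than in 77.3% and 54.9% of similar genes. Without DB2115 library B, the log2 fold change of SPI1 was 0.19, and without DB2115 library A it was -0.11. Such a fit holds 1 DB2115 library and measures no spread among treated libraries, so only effect sizes are given.

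SPIB, the lymphoid and plasmacytoid relative of PU.1, was low. It had 208 and 241 counts in vehicle and 215 and 233 with DB2115, or 5.92, 5.84, 5.25 and 5.63 CPM in the same order. Both DB2115 libraries lay below both vehicle libraries, but by little: the log2 fold change was -0.11 (95% interval -0.42 to 0.20, edgeR adjusted p = 0.525). Non-overlap of this kind was common, occurring in 81.3% of all tested genes and in 3 of these 6, ELF1, ELF4 and SPIB. SPIB lies on chromosome 19, 50418938 to 50431313, only 922 bases past the end of the DNA polymerase gene POLD1 on the same strand. Its counts were 2.77% and 2.59% of those of POLD1 in vehicle and 2.84% and 3.04% with DB2115, and whether part of them is transcription running past POLD1 was not tested. A second coding gene model on the same strand, ENSG00000142539, runs from 50415799 to 50428409. It starts before the annotated end of POLD1 at 50418016, overlaps SPIB over 9472 bases and had no count. How reads shared by SPIB and this model were assigned is not stated. Whether the SPIB level is undercounted for this reason was not tested.

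SPIC, the red pulp macrophage factor on chromosome 12 (101475421 to 101486997), had 0 counts in all 4 libraries. With 3 counts as the limit that a count of 0 allows, its level was at most 0.0707 to 0.0821 CPM per library, or 0.0189 CPM over the 158709197 counts of the 4 libraries. This limit covers counting error only.

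ELF1, an activator of lymphoid, myeloid and endothelial genes, was the strongest responder of the group. It stood at 227 and 219 CPM in vehicle and at 73.5 and 67.0 CPM with DB2115, so that all DB2115 values lay far below all vehicle values. Expressed as mean ± SD, the level went from 223 ± 5.77 to 70.2 ± 4.60 CPM (n = 2 each), 3.18-fold lower. The log2 fold change was -1.67 (SE 0.07, 95% interval -1.81 to -1.52, edgeR adjusted p = 2.93e-10). Falls at least as large were called for 570 genes, 3.31% of those tested, and falls of at least 2-fold for 9.53%. In bulk RNA, fewer cells with ELF1 transcripts and less of the transcript per cell cannot be told apart.

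ELF4, also called MEF, a relative of ELF1 with roles in lymphoid quiescence and innate immunity, moved the other way. It stood at 56.7 and 53.6 CPM in vehicle and 86.4 and 81.4 CPM with DB2115, without overlap. The rise was 1.52-fold, a log2 fold change of 0.61 (SE 0.07, 95% interval 0.46 to 0.75, edgeR adjusted p = 4.12e-06). ELF4 lies on chromosome X, 130064874 to 130110716, and ELF1 on chromosome 13, 40932028 to 41061440, both on the minus strand.

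ELF2, also called NERF, the third gene of this subfamily, was not called. Its levels were 33.2 and 33.8 CPM in vehicle and 31.2 and 37.2 CPM with DB2115, where the latter bracketed the former. The log2 fold change was 0.03 (95% interval -0.16 to 0.22, edgeR adjusted p = 0.771). Without DB2115 library B it was -0.11.

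Ratios of raw counts within a library do not depend on scaling. ELF1 counts were 4.0 and 4.09 times those of ELF4 in vehicle and 0.850 and 0.823 times with DB2115, so the order of these genes in counts was inverted in both treated libraries. The ratio of ELF1 to SPI1 was 1.21 and 1.24 in vehicle and 0.350 and 0.391 with DB2115. ELF4 to ELF2 went from 1.71 and 1.59 to 2.77 and 2.18. An exact 2-sided permutation test of 2 against 2 libraries cannot go below 0.333, the value reached by each of these ratios, so the separation is given as a description.

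ETV6, the pointed-domain repressor on chromosome 12 (11649854 to 11895402), had 117 and 121 CPM in vehicle and 99.5 and 119 CPM with DB2115. DB2115 library B lay between the vehicle libraries and library A below them. The log2 fold change was -0.12 (95% interval -0.29 to 0.05, edgeR adjusted p = 0.191), not called. Without DB2115 library B it was -0.26. A fit with the column letter as a replicate block called ETV6 (-0.13, edgeR adjusted p = 0.0473).

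**Figure D2:**
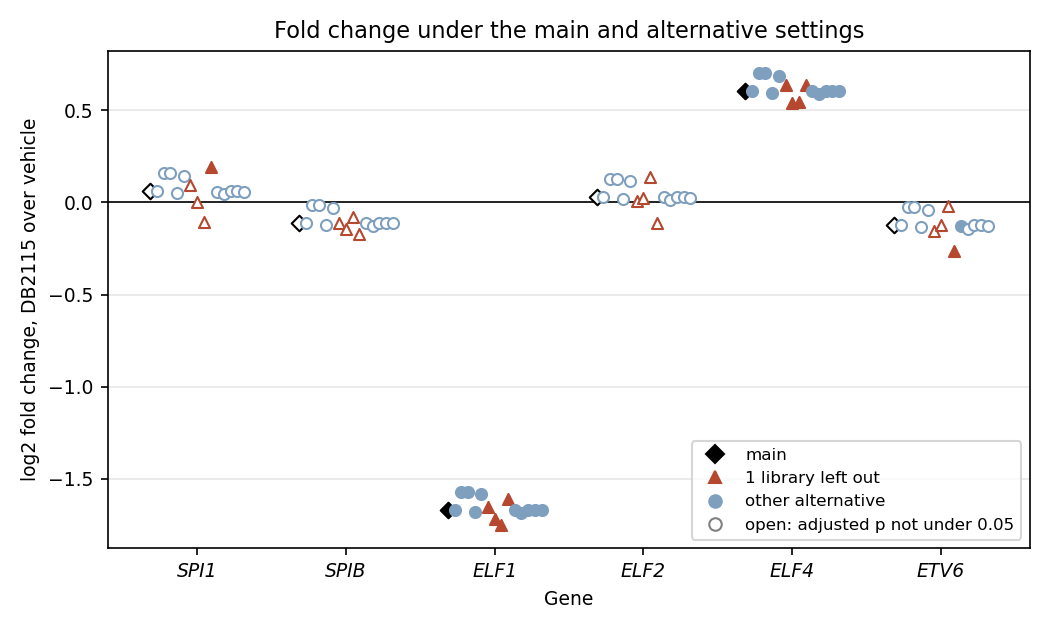
Log2 fold change of the 6 tested genes (vertical axis, DB2115 over vehicle) under the main setting (diamonds), with 1 library left out (triangles) and under the other alternatives (circles), open where adjusted p was not under 0.05. ELF1 stays between -1.75 and -1.57 and ELF4 between 0.54 and 0.70, while the triangles of SPI1 and ELF2 fall on both sides of 0.

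Levels were then compared per length, as CPM per kb of annotated exon. In vehicle the order was SPI1 (88.1 ± 3.48), ELF1 (51.4 ± 1.33), ETV6 (16.8 ± 0.372), ELF4 (12.8 ± 0.519), ELF2 (3.91 ± 0.0487) and SPIB (1.37 ± 0.0140 CPM per kb, SD, n = 2), and the libraries of neighbours in this order did not overlap. With DB2115 the order was SPI1 (92.1 ± 13.1), ELF4 (19.4 ± 0.824), ELF1 (16.2 ± 1.06), ETV6 (15.4 ± 1.91), ELF2 (4.0 ± 0.497) and SPIB (1.27 ± 0.0618 CPM per kb). Here ELF1 and ETV6 overlapped and did not differ beyond their spread. Lengths of the longest coding transcript in place of all exons gave the same order of means, but the DB2115 libraries of ELF4 (20.7 and 19.5 CPM per kb) and ELF1 (20.6 and 18.8 CPM per kb) then overlapped, so their order is within the spread.

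Set against the whole ETS family of 28 genes, the 7 genes lost weight. Their share of the summed ETS CPM per kb was 59.3% and 58.1% in vehicle and 43.3% and 40.2% with DB2115. ELF1, ELF2 and ELF4 together went from 23.1% and 22.7% to 11.2% and 11.1%, and the ELF4 gain, from 4.30% to 5.47%, was smaller than the ELF1 loss, from 17.3% to 4.56% of the family sum. SPI1 remained the highest ETS gene per length in both groups, with 29.6% ± 0.755 and 25.9% ± 2.85 of the sum. ELF1 went from rank 2 to rank 7, or to rank 8 with the longest coding transcript as length. The family sum itself was 300 and 294 CPM per kb in vehicle and 363 and 347 CPM per kb with DB2115. The sum of the 7 genes was 178 and 171 CPM per kb in vehicle and 157 and 140 CPM per kb with DB2115. ETS1 went from 10.5 to 63.4 CPM per kb, so a share can fall without a fall in level. SPI1 is such a case, with means of 88.1 and 92.1 CPM per kb.

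**Figure D3:**
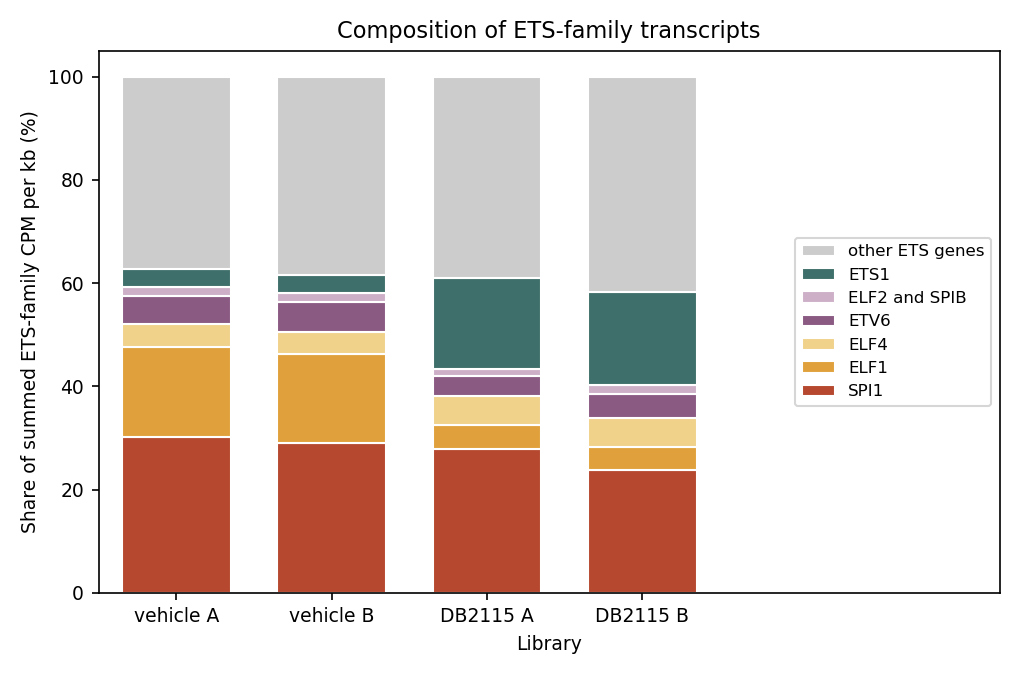
Stacked shares (%) of the summed CPM per kb over 28 ETS genes in each of the 4 libraries. The ELF1 band shrinks from 17.3% to 4.56% and the ETS1 band grows from 3.52% to 17.9%, while SPI1 stays the largest band of any single gene (other ETS genes are pooled in grey).

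Among the other ETS genes, 21 listed, 16 were tested, 11 rose and 2 fell, with a median log2 fold change of 0.78. ETV3L, ETV7 and SPDEF passed the count filter only through the DB2115 libraries, so they could enter only where high with DB2115. Over the 13 that passed it in both groups, 8 rose and 2 fell and the median was 0.53, where 32.7% of all tested genes rose. No test compared these genes with the 7 described here. ETS1 rose 6.06-fold from 74.8 to 453 CPM, ELK3 2.77-fold and ETV5 1.99-fold. ETV7, the closest relative of ETV6, had 0 counts in vehicle and 124 with DB2115, at least 38.4-fold higher against 3 counts over the group, although it reached only 1.51 CPM. The genes that fell were ETS2 (-0.32) and ERF (-0.21), both by far less than ELF1.

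Likeness of pattern was measured as the root mean square distance between log2 CPM profiles over the 4 libraries, each centred on its own mean, against the 16 other tested ETS genes. SPI1 lay nearest to GABPA (0.134), the DNA-binding subunit of GABP, then to ERF (0.156) and FLI1 (0.167). SPIB lay nearest to ERF (0.0738), and ELF2 and ETV6 to ELK4 (0.0817 and 0.0955). ELF4 lay nearest to ETV4 (0.100) and ETV3 (0.120). ELF1 had no close match, its nearest gene being ETS2 at 0.677. Each distance rests on only 4 libraries.

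**Figure D4:**
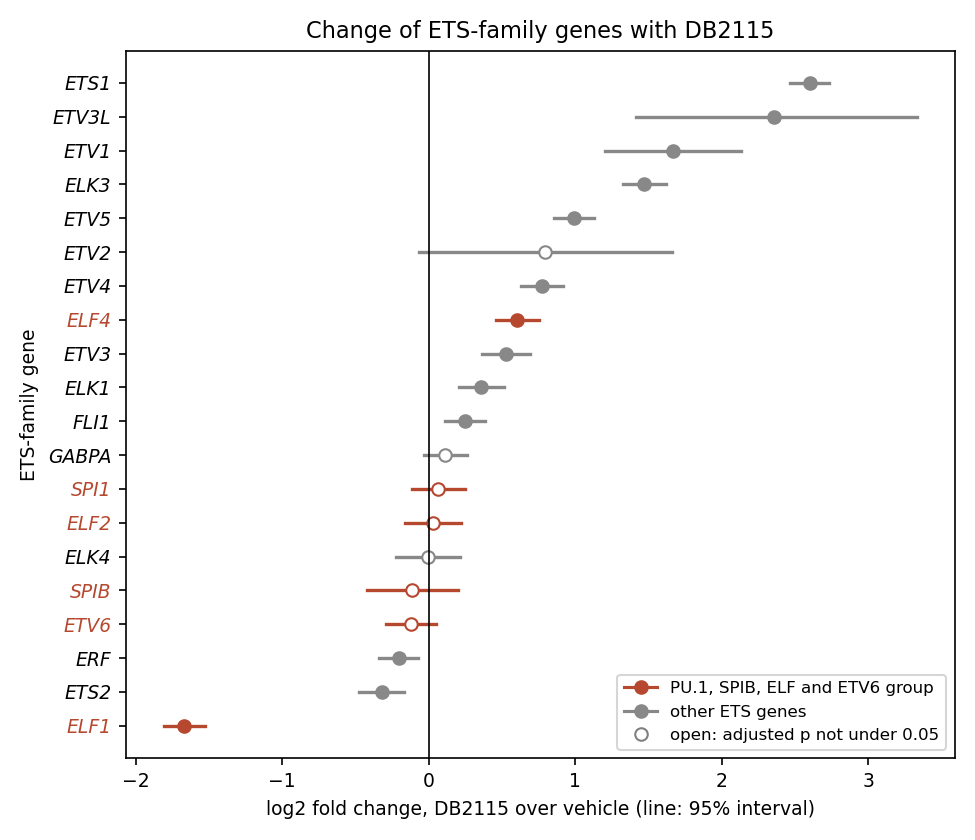
Log2 fold change with 95% interval (horizontal axis) for the tested ETS genes with more than 3 vehicle counts, red for the group described here and grey for other ETS genes, open where adjusted p was not under 0.05. ELF1 at -1.67 lies below all others, ELF4 at 0.61 lies among the rising genes, and the intervals of SPI1, SPIB, ELF2 and ETV6 include 0.

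The neighbours of each gene were read for changes at the same locus, and because strand was not stated, reads of overlapping genes cannot be told apart. The 5′ end of ELF1 overlaps that of WBP4, a spliceosomal WW-domain protein gene on the opposite strand, over 167 bases. WBP4 had 36.7 and 37.0 CPM in vehicle and 39.5 and 38.5 CPM with DB2115 (log2 fold change 0.08, edgeR adjusted p = 0.316), whereas ELF1 fell 3.18-fold. WBP4 was called slightly higher, at 0.18 (adjusted p = 0.0367), with upper-quartile factors, and was also called with total counts, the 1 CPM filter and all 6 columns. The nearest coding genes outside this pair fell: SLC25A15, the mitochondrial ornithine carrier 121917 bases away, at -1.53 and KBTBD6 at -0.77. In the ELF1 locus, then, the values on both sides were lower and WBP4 between them was not called. For comparison, 64.1% of all tested genes were called, 31.3% lower, and 9.53% were called lower by at least 2-fold. The same shares stand beside the loci below. Whether the falls at the ELF1 locus are linked was not tested.

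At the ELF4 locus BCORL1, a corepressor gene 6791 bases away, rose (0.86) and AIFM1, on the other side, fell (-0.44). ELF2 overlaps NOCT, a gene on the opposite strand, over 17828 bases. NOCT fell (-0.52, edgeR adjusted p = 0.000112), and ELF2 was not called. The nearest gene 28556 bases upstream of SPI1, SLC39A13, a zinc transporter, rose 1.87-fold while SPI1 was not called. POLD1 beside SPIB fell (-0.25), a call lost without vehicle library B, in a fit with 1 vehicle library.

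Each of the 3 SPI genes has a myosin-binding protein C gene as its neighbour on 1 side. MYBPC3, beside SPI1, had 5 and 8 counts in vehicle and 9 and 7 with DB2115. MYBPC2, beside SPIB, had 0 counts in vehicle and 15 and 22 with DB2115, at least 11.5-fold higher against 3 counts over the group. MYBPC1, 81356 bases from SPIC, went from 1 count over both vehicle libraries to 26 over both treated ones. This ratio was 24.1 (95% counting interval 3.97 to 990). All 3 stayed below 1 CPM.

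**Figure D5:**
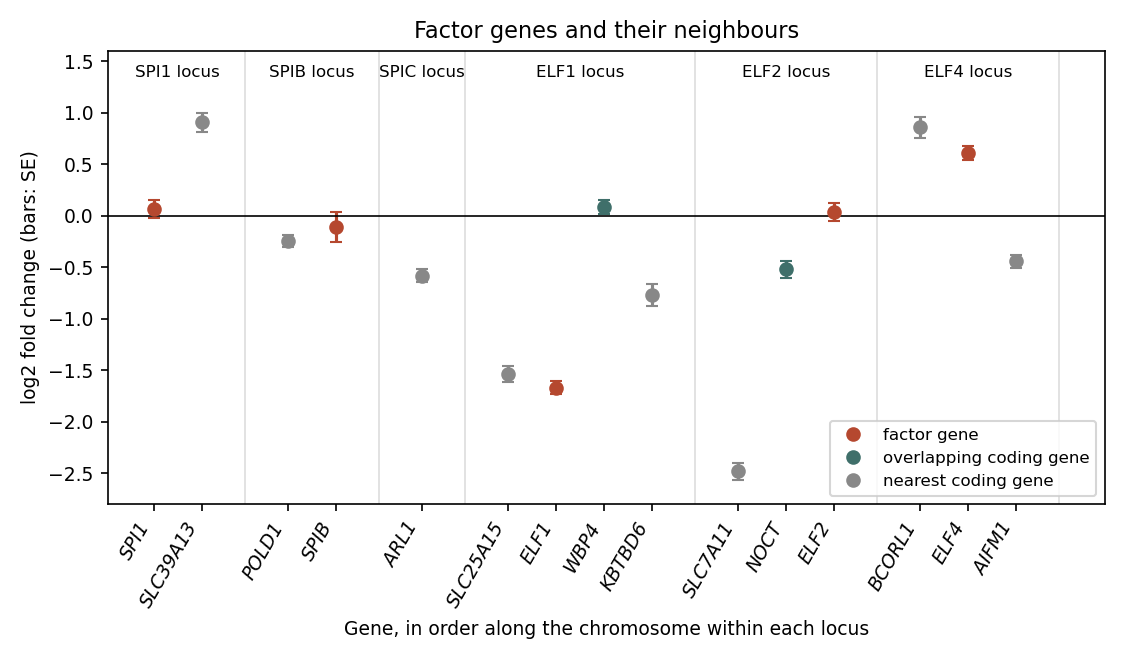
Log2 fold change (points) with SE (bars) of the factor genes (red), overlapping coding genes (green) and nearest coding genes (grey), in order along the chromosome, for genes above 1 CPM in vehicle. ELF1 at -1.67 and SLC25A15 at -1.53 have similar values, WBP4 at 0.08 stays near 0, and the genes beside ELF4 go in opposite directions. Falls of at least 2-fold were called for 9.53% of all tested genes.

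Genes that work with or upstream of PU.1 were called in both directions, as were all tested genes (64.1%, 32.7% higher and 31.3% lower). Of 24 partner and antagonist genes, 22 were tested, 11 rose and 6 fell (median log2 fold change 0.41). IRF8, the interferon regulatory factor that binds DNA with PU.1 at composite sites, fell from 755 to 269 CPM, 2.80-fold. MYB, a progenitor factor, fell 6.29-fold, and JUN, a PU.1 coactivator in monocytes, rose 5.42-fold from 9.19 to 49.8 CPM. Of 11 upstream regulators of SPI1, 10 were tested, 3 rose and 4 fell (median -0.03). TCF7L2 rose 3.20-fold, SATB1 and GFI1 fell 2.03-fold and 1.97-fold, and RUNX1, which acts at the upstream SPI1 enhancer, had 249 CPM in vehicle and 251 CPM with DB2115 (edgeR adjusted p = 0.874).

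Of 42 myeloid genes known as PU.1 targets, 41 were tested, 31 rose and 9 fell, with a median log2 fold change of 1.25. Over all tested genes, 32.7% were called higher and 31.3% lower, with a median of 0.03. Leaving out ADGRE1, CD14, CLEC5A and CYBB, which passed the filter only through the DB2115 libraries, 27 rose and 9 fell and the median was 1.19. The Toll-like receptor TLR4 rose from 1.08 and 1.31 CPM to 65.2 and 61.8 CPM, and the kinase gene FGR from 1.74 and 1.65 to 58.7 and 58.4 CPM. NCF1, an NADPH oxidase subunit, rose 30.4-fold but shares its sequence with pseudogenes, so its value is uncertain. CSF2RA, FCGR1A, LYZ, ELANE, CTSG, CTSS, BTK, PTPRC and JUNB fell.

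Genes that accompany SPIB in B and plasmacytoid dendritic cells were mixed. Of 17 listed, 13 were tested, 8 rose and 2 fell (median log2 fold change 1.76), where 32.7% of all tested genes rose and 31.3% fell. Of the 8 rises, 4 (CD22, CD79B, LILRA4 and TLR9) were of genes that passed the filter only through the DB2115 libraries, as did TLR7, which was not called. Over the 8 genes that passed it in both groups, 4 rose and 2 fell and the median was 0.41. POU2F2, the octamer factor Oct-2, rose 3.38-fold, CD79A rose from 0.875 to 8.94 CPM, and PAX5, a B-lineage factor, fell from 49.4 to 11.0 CPM. The defining B cell marker MS4A1 was at 0.0263 and 0.0121 CPM and the plasmacytoid marker CLEC4C had no count. The 6 B cell markers summed to 51.8 to 53.2 CPM in vehicle and 27.7 to 31.3 CPM with DB2115, and their part in the SPIB values was not tested.

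Of 9 genes linked to Spi-C, haem handling and red pulp macrophages, 5 were tested, 4 rose and none fell (median 1.20). Beside them, 32.7% of all tested genes rose and 31.3% fell. Without HMOX1, which passed the filter only through the DB2115 libraries, 3 of 4 rose and the median was 0.91. HMOX1, haem oxygenase, rose 48.8-fold from 0.211 to 10.4 CPM, BLVRB, biliverdin reductase B, 4.42-fold and FTH1, the ferritin heavy chain, 2.30-fold. BACH1, the haem-sensitive repressor of SPIC, rose from 29.7 to 45.5 CPM. VCAM1, CD163 and SLC40A1, the other red pulp macrophage markers, were near 0, with group means of at most 0.182 CPM.

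Of 17 genes reported as targets of ELF1, ELF2 or ELF4, 13 were tested, 9 rose and 2 fell (median 0.48). Among all tested genes, 32.7% rose and 31.3% fell. TAL1, TEK and TIE1 passed the filter only through the DB2115 libraries and CD247 only through vehicle, and over the other 9 genes 7 rose and 1 fell (median 0.46). The list pools targets of ELF1, which fell, of ELF4, which rose, and of ELF2, which was not called. Its genes were not matched to a single factor. PRF1, the perforin gene, rose 30.5-fold from 0.832 to 24.9 CPM, and NOS3, the endothelial nitric oxide synthase, from 2.58 to 10.3 CPM. TIE1, an endothelial receptor, went from 1 count over both vehicle libraries to 129 over both treated ones, a 120-fold ratio (95% counting interval 21.1 to 4767). LYN, a Src-family kinase, rose from 140 to 192 CPM. The genes that fell were CD247, with 11 and 16 counts in vehicle against 2 and 0 with DB2115, and KLF2 (-0.40).

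Of 10 corepressors and partners of ETV6, all were tested, 3 rose and 3 fell (median -0.03), beside 64.1% called over all genes tested. ETV7, 1 of the 3 rises, passed the filter only through the DB2115 libraries. HDAC9, a histone deacetylase, fell 3.15-fold from 32.4 to 10.3 CPM. SIN3A and NCOR1, which ETV6 also recruits, were not called (edgeR adjusted p = 0.0849 and 0.204).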

How the data were processed

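RNA-seq of MOLM-13 cells was read from the authors' deposited table of raw gene counts, without normalisation. FastQC, STAR and DESeq2 (no versions) and the build hg38 are named, per the submitters' processing notes. No source used here gives the annotation, the counting tool or the strand setting. Totals were 36547900 to 42446253 counts per library. Of 58381 identifiers, 58216 received a symbol and a GENCODE release 29 (GRCh38) model by unversioned Ensembl ID. Lengths are merged exons. Columns A and B of each group were used, and the columns holding their sum were left out, as an alternative fit.

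Counts were filtered with filterByExpr (minimum count 10, minimum total 15), scaled by TMM and fitted with edgeR 4.0.16 (glmQLFit, glmQLFTest) in R 4.3.3 over 17219 genes, with treatment as the only term. The common biological coefficient of variation was 6.33%. Standard errors were taken as the log2 fold change divided by the square root of F, and 95% intervals from the total degrees of freedom. Counting intervals are exact binomial. Alternatives used other scaling, filters, DESeq2 1.42.0, limma 3.58.1 (voom), each library left out, a block on the letters, all 6 columns and no mitochondrial genes.

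The genes, lists and tests were chosen with earlier results of these data known, so no list is independent evidence. Named genes were the 7 factors, the 3 called genes with the smallest adjusted p per list, the 3 nearest ETS profiles and the genes overlapping or flanking a factor. Other list genes were named after their values were seen. A gene that this rule names is not reported here. Promoter windows are RefSeq's, with bases in GENCODE untranslated regions left out of what is printed.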

Additional observations from a re-analysis of the deposited data

How the results depend on the processing

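ELF1 and ELF4 kept their direction and their call under all 14 alternatives, with log2 fold changes from -1.75 to -1.57 and from 0.54 to 0.70. SPIB was called under none of them (-0.17 to -0.02, adjusted p from 0.0688 to 0.933). SPIC gave no value in any fit because it had no count. SPI1, ELF2 and ETV6 depended on single DB2115 libraries. With 1 library left out in turn, the log2 fold change ran from -0.11 to 0.19 for SPI1, from -0.11 to 0.14 for ELF2 and from -0.26 to -0.017 for ETV6. Such a fit has 1 library in a group and no spread from that group, so only effect sizes are given for these genes. The cause of the dependence on single libraries was not tested. A fit with a replicate block on the column letters gave ETV6 -0.13 with adjusted p = 0.0473, just past the threshold, and changed no other call among the 7 genes. The letters are not said to pair the libraries, and A minus B differences correlated at 0.0159 between the groups over the tested genes. The count of called genes was 11030 under the main settings and ran from 8838 to 13838 under the alternatives, the highest with all 6 columns, which counts the sums as libraries. Upper-quartile factors moved the median log2 fold change of all genes from 0.03 to 0.12, and the calls from 5634 higher and 5396 lower to 6298 higher and 4699 lower, and the sign of none of the 6 tested factors changed. With 2 libraries per group, the intervals given for SPI1, ELF2, ETV6 and SPIB cover only variation between these libraries under the main scaling. They may not cover variation between cultures, and they leave out the choice of scaling. With upper-quartile factors the log2 fold change of SPI1 was 0.16, not called, against 0.06 under the main settings.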
